A study of Mus musculus with 21 samples.

Results

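The 2 heat effects measured in whole testes of C57BL6 mice, 1 in wild-type animals and 1 in Mageb4 knockout animals, were set against each other gene by gene. All 21 libraries of the series entered: 6 unheated wild-type, 4 wild-type taken 72 h after heat shock, 6 unheated knockout and 5 knockout taken 72 h after heat shock. Values were TPM (a gene's share of a library's RNA per length, scaled to a fixed total), and 18977 genes averaging 1 TPM or more entered the test. The quantity of interest was the difference of the heat effects, the knockout's change in mean log2(TPM + 1) minus the wild type's. The comparison bears on the study's question of what losing Mageb4 does to testis RNA with and without heat. How hot and how long the heat shock was, how old the mice were and which knockout allele they carried are points that the labels leave unstated. The labels call the libraries biological replicates, without saying which animals they came from, so p-values measure the spread between these samples.

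The seminiferous epithelium of the testis carries germ cells from spermatogonia through meiotic spermatocytes and round spermatids to elongating spermatids, all held by Sertoli cells and surrounded by Leydig, myoid and immune cells. Meiotic and round-spermatid stages are known for their sensitivity to heat. In elongating spermatids transition proteins and then protamines replace the histones, and their messages are made early and stored until needed. Mageb4 belongs to the X-linked MAGE genes, many of which are expressed mainly in the germline and encode partners of ubiquitin ligases. The title of the series concerns G3BP, a core protein of stress granules, the cytoplasmic assemblies of stalled messages.

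Mageb4 itself went with the labels. In wild type it stood at 1.53, 1.82 and 1.99 TPM (lowest, median and highest of 6) without heat and at 7.86, 8.18, 7.82 and 8.26 TPM after heat, while no knockout library passed 0.15 TPM. G3bp1 and G3bp2, the genes for G3BP, did not depart from the general damping described next. G3bp1 rose by 1.22 ± 0.07 (log2 difference ± SE) in wild type and 0.50 ± 0.07 in the knockout, and G3bp2 by 1.73 ± 0.08 and 0.69 ± 0.07. Both differences passed the test (limma, adjusted p = 9.0e-07 and 3.6e-08), whereas the departures of -0.05 and -0.10 from the common line did not (adjusted p = 0.60 and 0.34).

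The general pattern was a smaller heat effect in the knockout. Across genes the knockout effect followed the wild-type effect with a slope of 0.473 (jackknife SE over libraries 0.0449) and a Pearson r of 0.883 over 18977 genes, which are not independent replicates. Among genes that rose by at least 1 log2 unit in wild type the median ratio of the effects was 0.493 (interquartile range 0.413 to 0.556, 5917 genes), and among those that fell it was 0.519 (0.285 to 0.700, 5809 genes). The difference was positive for 6297 genes (33.2%) and negative for 9024 (47.6%) at an adjusted p under 0.05. A damped effect, called in wild type, with a called difference against its direction and no opposite call in the knockout, was found for 7592 rises (40.0%) and 5462 falls (28.8%), together 68.8% of genes. In wild type 47.0% of genes were called higher and 44.6% lower after heat, and in the knockout 41.3% and 41.5%. Comparing the heated groups directly, 34.4% of genes were higher and 49.0% lower in the knockout. Heated and unheated samples did not overlap for 86.5% of genes in wild type, 69.7% in the knockout and 64.7% in both, and the 2 heated groups did not for 72.3%. Without heat, 237 genes were called higher (1.25%) and 16 lower (0.0843%) in the knockout. Few genes passed this test, but 223 of the 253 were damped rises, a class of 40.0% of all genes. For those genes the 2 heat effects were counted from different unheated levels.

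The remainder fell into 3 kinds. Opposite effects, with both heat effects and their difference called and the effects of different sign, held 525 genes that rose in the knockout and fell in wild type (2.77%) and 413 of the reverse kind (2.18%). A larger effect in the knockout, called there with a called difference in the same direction and no opposite call in wild type, held 297 rises (1.57%) and 994 falls (5.24%). Equal effects held 28 rises (0.148%) and 512 falls (2.70%). A gene counted as equal if both heat effects were called with 1 sign, the wild-type effect was at least 1 log2 unit and the 95% interval of the difference lay within 0.5 log2 units of 0. Some 96 equal genes still had a called difference, 82 of them toward damping and 14 toward a larger effect. A further 3250 genes entered no class. Relative to the common line, 3699 genes lay above (19.5%) and 5052 below (26.6%), together 8751 (46.1%).

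TPM values are shares of a library, and the classes depended on how libraries were put on 1 scale. Scaling by the median of ratios shifted the median heat effect by -0.21 in wild type and -0.08 in the knockout, and quantile normalization by 0.07 and 0.05. Membership under all 3 scales was kept by 304 of the 525 opposite rises, 72 of the 413 opposite falls, 114 of the 297 larger rises, 463 of the 994 larger falls, 8 of the 28 equal rises and 241 of the 512 equal falls. Of the damped genes, 6776 rises and 4367 falls were kept. Of the genes called different, 41.1% were higher in the knockout as deposited, 46.3% with median-of-ratios scaling and 38.7% with quantile normalization. Since these are bulk samples, fewer cells of a type and less RNA per cell cannot be told apart.

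**Figure D1:**
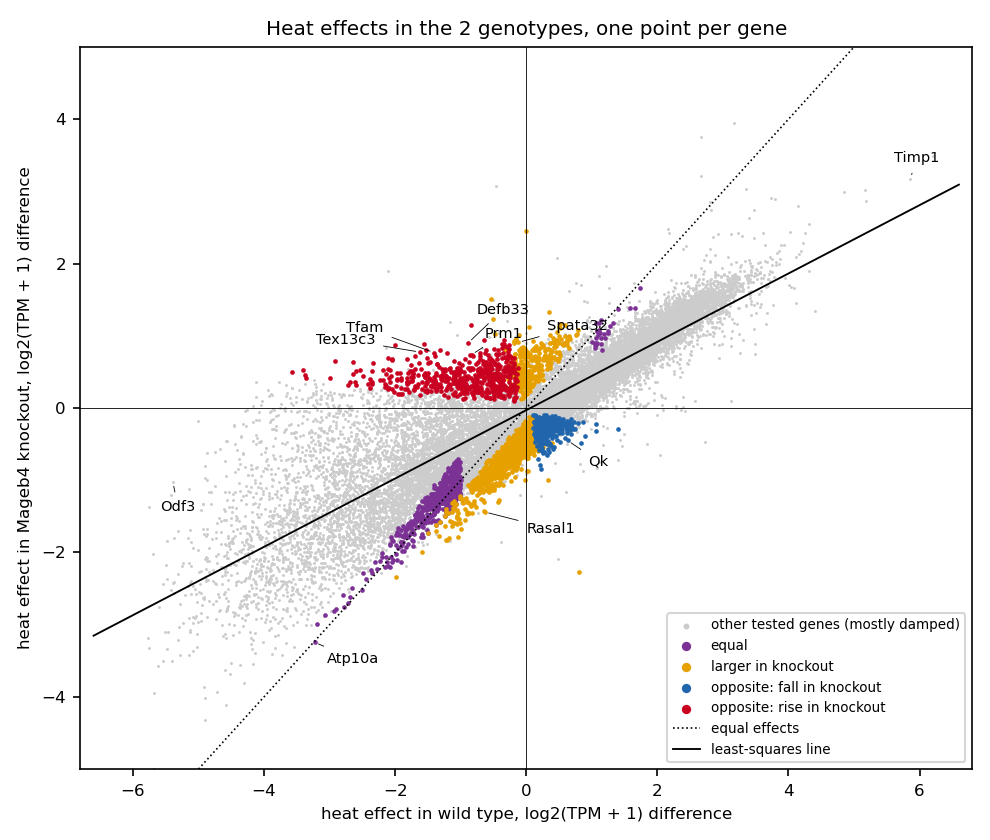
Each point is 1 of the 18977 genes tested, with its heat effect in wild type on the horizontal axis and in the Mageb4 knockout on the vertical axis, both as differences of mean log2(TPM + 1). The grey cloud follows the least-squares line of slope 0.473, below the dotted line of equal effects for rises, while the coloured genes are those with opposite, larger or equal effects, such as Prm1 at -0.83 and 0.74 and Atp10a at -3.23 and -3.24.

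Some late spermatid transcripts rose in the knockout while falling in wild type in the values as deposited. Of 51 tested genes of elongating and condensing spermatids 11 did so, and 22 were damped falls. For most of the 11 the opposite call depended on the scale, as described below. The promoters of 3 such genes, and of Gabarapl1, an autophagy gene that rose in the knockout alone by the test, are shown because the heated knockout had a higher TPM of each than any other group, and so that the element counted next can be seen in place. Each is the 250 bases before the RefSeq start on GRCm38.p6, read 5′ to 3′ on the gene's strand, and capitals mark matches to TGANNTCA, a loose form of the cyclic AMP response element, and to TATAA. The windows lie at chr1:73015900-73016149 (minus strand) for Tnp1, chr16:10788656-10788905 (minus) for Tnp2, chr16:10796824-10797073 (minus) for Prm1 and chr6:129532942-129533191 (plus) for Gabarapl1.
Tnp1: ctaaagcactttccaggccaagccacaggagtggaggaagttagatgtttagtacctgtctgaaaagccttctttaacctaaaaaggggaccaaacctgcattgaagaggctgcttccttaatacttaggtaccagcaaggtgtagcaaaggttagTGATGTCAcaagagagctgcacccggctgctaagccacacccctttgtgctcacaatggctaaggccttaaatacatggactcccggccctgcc
Tnp2: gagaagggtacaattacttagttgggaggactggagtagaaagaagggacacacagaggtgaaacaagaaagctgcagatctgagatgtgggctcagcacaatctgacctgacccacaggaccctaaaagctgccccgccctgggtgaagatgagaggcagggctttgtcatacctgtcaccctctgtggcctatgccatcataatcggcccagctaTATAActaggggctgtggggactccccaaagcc
Prm1: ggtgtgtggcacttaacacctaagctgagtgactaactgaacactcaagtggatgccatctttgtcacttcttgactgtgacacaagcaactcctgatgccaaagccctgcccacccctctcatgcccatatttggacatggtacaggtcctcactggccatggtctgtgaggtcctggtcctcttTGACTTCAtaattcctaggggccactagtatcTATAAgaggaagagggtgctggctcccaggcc
Gabarapl1: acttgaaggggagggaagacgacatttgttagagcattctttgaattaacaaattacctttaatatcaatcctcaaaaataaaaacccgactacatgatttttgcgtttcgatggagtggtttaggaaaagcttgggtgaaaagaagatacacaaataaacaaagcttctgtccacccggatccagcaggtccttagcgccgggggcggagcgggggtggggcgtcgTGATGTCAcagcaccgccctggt

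Among the 12833 tested genes with a promoter in the table, 11.5% held TGANNTCA on either strand, close to the 12% of all 27025 promoters. It stood in 75 of 336 promoters of opposite rises (22.3%) and 41 of 205 of larger rises (20%). The share was 17.0% for damped falls, 8.04% for damped rises, 7.74% for opposite falls, 8.31% for larger falls and 10.5% for equal falls. The full palindrome TGACGTCA, which is part of the loose form, stood in 2.54% of tested promoters and 2.98% of opposite rises. The pentamer TATAA was present in 13.9% of tested promoters, 16.4% of opposite rises and 10.1% of larger falls. CCAAT stood in 36.3% of tested promoters, 33.9% of opposite rises and 44.2% of opposite falls. Over all 27025 promoters the shares were 1.62% for TGACGTCA, 23.5% for TATAA and 34.5% for CCAAT, each counted on both strands. A match describes these letters only, and no test was made of the shares.

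Prm1 encodes protamine 1, the small basic protein that compacts sperm DNA, and lies at chr16:10796326-10805839 on mm10. It stood at 4828, 6361 and 7775 TPM (lowest, median, highest) in unheated wild type, at 4108, 2570.3, 3370.5 and 4353 TPM in heated wild type, at 5132, 6494 and 7242 TPM in the unheated knockout, and at 10355, 10368, 12272, 9890.1 and 8973 TPM in the heated knockout. Every heated wild-type sample was below, and every heated knockout sample above, all unheated samples. The heat effects were -0.83 ± 0.14 and 0.74 ± 0.13, a difference of 1.57 ± 0.19 (adjusted p = 2.8e-07). Under quantile normalization the knockout effect turned to -0.23 (adjusted p = 0.0026), while the difference stayed positive at 1.35.

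Tnp1, the gene for transition protein 1 (chr1:73015074-73015909), moved further apart. Unheated wild type ran from 12236 to 12664 TPM around a median of 12452 TPM, and heated wild type stood at 3886, 1168, 2309 and 3453 TPM. Unheated knockout ran from 11139 to 13312 TPM around a median of 12337 TPM, and the heated knockout reached 21067, 17695, 21119, 16308 and 18551 TPM. No value overlapped between heated and unheated samples in either genotype, and the heated knockout mean was 7.01 times the heated wild-type mean. The difference was 2.96 ± 0.28 (adjusted p = 9.7e-09).

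Tnp2, for transition protein 2, followed the same order, with medians of 7689 and 7836 TPM in unheated wild type and knockout. Heated wild type stood at 2219, 1100.2, 1513 and 2133 TPM and the heated knockout at 11062, 10440, 12870, 10098 and 9964 TPM, again without overlap. The difference was 2.71 ± 0.20 (adjusted p = 4.2e-10). Prm2, the gene for protamine 2, rose in both genotypes but more in the knockout, by 0.30 ± 0.11 and 0.71 ± 0.10 (difference 0.41 ± 0.15, adjusted p = 0.014). Its heated knockout samples stood at 19025, 22319, 24509, 21716 and 17739 TPM, above every other sample. For these 3 genes, too, the knockout rise depended on the scale: under quantile normalization, which caps the most abundant genes, the effects were 0.01 for Tnp1, -0.18 for Tnp2 and -0.01 for Prm2 (adjusted p = 0.93, 0.061 and 0.92), and the differences remained at 2.85, 2.49 and 0.74. Tnp1, Tnp2 and Prm2, like other list members outside the naming rule, were chosen after their values were seen.

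Of 51 tested genes of elongating and condensing spermatids, 44 had a higher heat effect in the knockout and 0 a lower one, beside 33.2% and 47.6% of all genes. The median effect was -0.68 in wild type and 0.28 in the knockout, with a median difference of 1.05 beside -0.23 over all genes. The list held 11 opposite rises, 11 larger rises, 22 damped falls and 1 equal rise, and 6 members entered no class. The knockout effect was called a rise for 29 members and a fall for 10, and for 27 and 13 with median-of-ratios scaling or 23 and 14 with quantile normalization. The list's summed TPM was 82522 to 93501 in unheated wild type, 54944 to 73343 in heated wild type, 83749 to 91109 in the unheated knockout and 113868 to 134762 in the heated knockout. The heated knockout libraries thus gave a larger share to these messages than any other library, and a rise in their amount and a loss of other RNA cannot be told apart in values of this kind.

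Besides Prm1, Tnp1 and Tnp2, the opposite rises of the list included Prm3 (-0.93 and 0.28, wild type and knockout), Odf2 of the outer dense fibres (-0.41 and 0.25), the ubiquitin-conjugating enzyme gene Ube2j1 (-0.34 and 0.51), Spatc1 (-0.19 and 0.60), Klk1b8 (-0.33 and 0.89), Cstl1 (-1.47 and 0.64) and Iqcf1 (-2.36 and 0.34). Cstl1 alone of the 11 was opposite on all 3 scales. Under quantile normalization the knockout effect of Odf2 turned to -0.51 and the wild-type effect of Spatc1 to 0.22. The larger rises included Akap4, the main scaffold of the fibrous sheath of the sperm tail (0.06 in wild type, not called, and 0.71 in the knockout), and Gapdhs, the sperm glycolytic dehydrogenase (0.11, not called, and 0.67). Under quantile normalization the wild-type effect of Gapdhs was a called fall of -0.25. Oaz3, the antizyme of haploid germ cells, rose by 0.62 and 0.87 (the wild-type effect was -0.19 under quantile normalization), and Spem1 by 0.45 and 0.86. Capzb, for an actin-capping subunit, stood at -0.00 (not called) and 0.45. Tppp2, a sperm tail tubulin-associated gene, was the equal rise, with 1.08 and 1.06. The 22 damped falls included Odf3, an outer dense fibre gene, which fell by 5.39 and 1.03 (difference 4.36 ± 0.44, adjusted p = 2.7e-08).

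**Figure D2:**
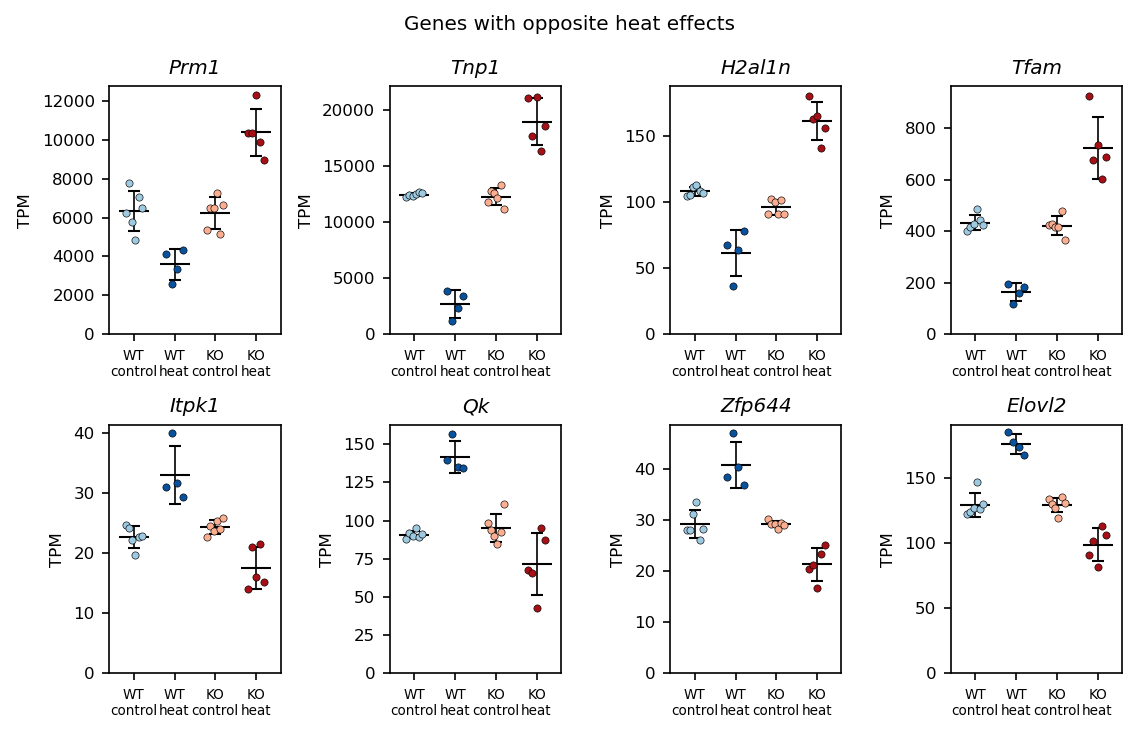
TPM in each library for 8 genes with opposite heat effects, from 0 on each vertical axis. Points are libraries, and bars are the mean and SD of 6 unheated wild-type (WT), 4 heated WT, 6 unheated knockout (KO) and 5 heated KO libraries. In the top row the heated KO lies highest and the heated WT lowest, and in the bottom row the order is turned round, with overlap of heated and unheated KO for Qk alone.

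Other genes, whose cell type was not tested here, led the opposite rises by the smaller of the 2 effects. Defb33, a beta-defensin gene at chr8:20892669-20897723, ran from 118 to 148 TPM in unheated wild type and 117 to 147 TPM in the unheated knockout, with medians of 135 and 136 TPM. It stood at 80.6, 49.7, 78.6 and 86.9 TPM in heated wild type and at 282, 244, 239.8, 225 and 272 TPM in the heated knockout. The 3 levels did not overlap, and the difference was 1.79 ± 0.16 (adjusted p = 4.8e-09). Tfam, whose product packages mitochondrial DNA and has a testis isoform, lies at chr10:71225464-71238280. It ran from 401 to 485 TPM and 365 to 478 TPM in the unheated groups (medians 426 and 419.9 TPM), stood at 196, 119, 161 and 185 TPM in heated wild type, and at 924, 675, 733, 601 and 687 TPM in the heated knockout. All heated wild-type samples were below and all heated knockout samples above the unheated range, with a difference of 2.18 ± 0.16 (adjusted p = 5.1e-10).

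H2al1n encodes a testis histone H2A-like protein and belongs to an X-linked family of near-identical copies, so its reads may be shared with relatives. It stood at 67.3, 36.4, 64.0 and 77.8 TPM in heated wild type and 180.3, 163, 165, 141 and 156 TPM in the heated knockout, around unheated medians of 107 and 95.3 TPM. The groups did not overlap, and the difference was 1.59 ± 0.18 (adjusted p = 8.9e-08). Its relative H2al2a moved likewise (-0.37 and 0.83). Other opposite rises were Tex13c3 (-1.62 and 0.78), Gramd2 (-1.20 and 0.76) and Tmem269 (-0.71 and 0.76). Heated and unheated samples of Tmem269 and Tex13c3 did not overlap in either genotype, whereas 1 heated wild-type sample of Gramd2, at 8.79 TPM, lay among the unheated ones. Defb33, Tfam, H2al1n, Tex13c3, Gramd2 and Tmem269 stayed opposite on all 3 scales.

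Over the 525 opposite rises the median effects were -0.76 and 0.41. Heated and unheated samples were apart in both genotypes for 295 of them, beside 64.7% of all genes, and both effects reached 0.5 log2 units for 102. All 525 lay above the common line, a side that the signs defining the class fix in advance. Of the 525, 3 differed between genotypes without heat and 1 rose at least 2-fold in the knockout. By annotation (GENCODE M21) 58.0% of matched members were protein-coding and 179 were long noncoding RNAs, against 76.4% protein-coding among all matched genes. The X chromosome held 5.50% of them and 4.65% of all. Genes named by stem were looked at after their values were seen: of 37 tested Tex genes 8 were opposite rises and 3 larger rises, of 12 Klk genes 3 and 3, and of 5 Iqcf genes 2 and 2. These stems were picked from many. The shares over all genes were 2.77% and 1.57%, and of 128 Ccdc genes 3 and 2 were in these classes. Several Klk1b genes are close copies, so their reads may have been split.

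Round-spermatid, axoneme and pachytene genes were mostly damped rather than opposite. Of 39 round-spermatid genes 38 had a higher effect in the knockout and 0 a lower one, with medians of -4.36 in wild type and -1.49 in the knockout, and 33 were damped falls. The exceptions were the actin-like genes of the sperm head Actl9 (-0.36 and 0.38), Actrt1 (-0.68 and 0.51) and Actrt2 (-1.31 and 0.30), which were opposite on all 3 scales, and the larger rises Gapdhs and Tssk3. The last member, Spata18, entered no class. All 34 axoneme genes were damped falls (medians -3.77 and -2.15), a class of 28.8% of all genes. Of 34 pachytene and diplotene genes 28 were damped falls (medians -3.07 and -1.50), whereas Eif4g3, a translation initiation scaffold needed for meiosis, was an equal fall (-1.17 and -1.02). Of 25 piRNA genes 17 were damped, a share near the 68.8% of all genes, Tdrd7 was an equal fall (-1.93 and -1.77), and Mov10l1, the piRNA helicase, was opposite (0.50 and -0.25, difference -0.75 ± 0.10, adjusted p = 1.3e-06), though its knockout fall was not called under quantile normalization.

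Per library the lists told the same order. The elongating list's median deviation from the unheated mean of its own genotype ran from -0.95 to -0.48 in heated wild type and from 0.23 to 0.47 in the heated knockout, on either side of 0. The round-spermatid list ran from -4.82 to -3.22 and from -1.77 to -1.09. Libraries of the 2 heated groups overlapped for early meiotic genes, at -0.54 to -0.17 and -0.58 to -0.10, and for mitotic genes, at -0.66 to -0.39 and -0.78 to -0.55. In these and the Sertoli and Leydig lists the farthest unheated library from 0 was a knockout one at 0.28, in the Sertoli list.

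**Figure D3:**
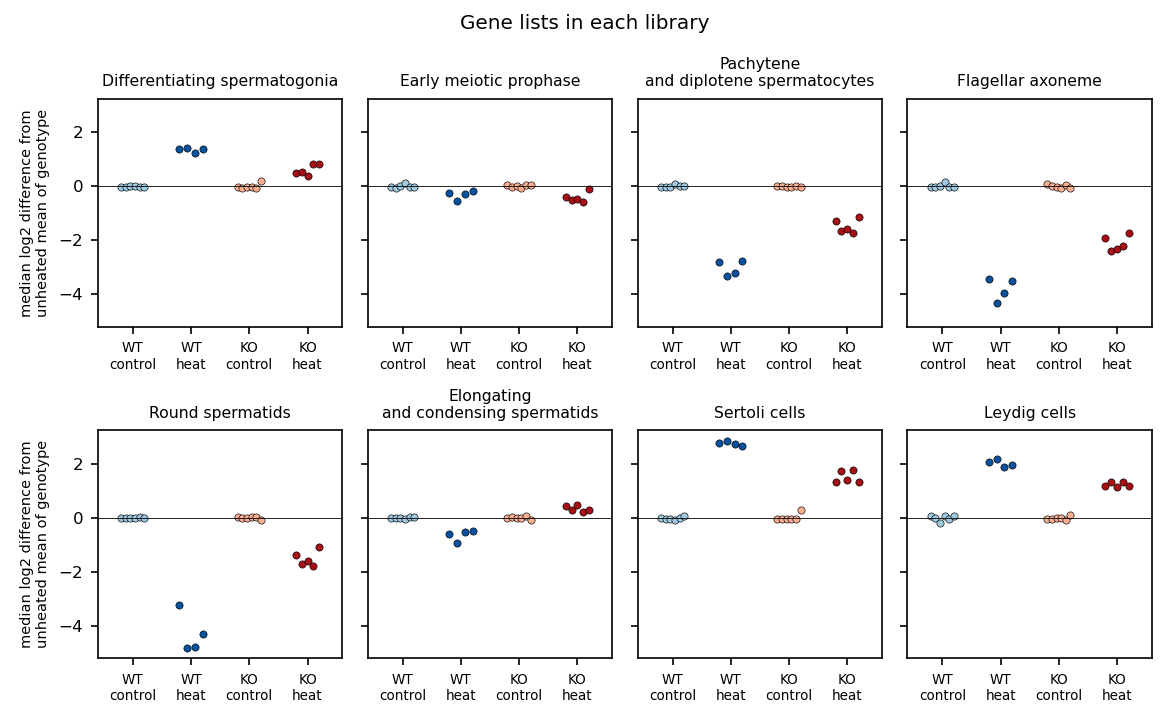
For 8 gene lists, each point is 1 library and its height is the median, over the tested genes of the list, of the log2(TPM + 1) difference from the unheated mean of the same genotype. The knockout (KO) and wild-type (WT) heated libraries lie on opposite sides of 0 for elongating spermatids only among the 8 lists drawn, overlap for early meiotic prophase, and differ in size for the rest.

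The opposite falls, which rose in wild type and fell in the knockout, were small changes. Median effects were 0.30 and -0.25, and no gene reached 0.5 log2 units in both genotypes. Heated and unheated samples were apart in both genotypes for 123 of 413, beside 64.7% of all genes, and 95.4% of matched members were protein-coding, beside 76.4% of all. Itpk1, an inositol phosphate kinase gene at chr12:102568582-102704930, ran from 19.6 to 24.6 TPM and 22.7 to 25.8 TPM in the unheated groups (medians 22.8 and 24.3 TPM). It stood at 31.0, 40.01, 31.6 and 29.4 TPM in heated wild type and at 13.99, 20.98, 16.0, 21.5 and 15.1 TPM in the heated knockout. No heated sample overlapped the unheated samples of its genotype, and the difference was -0.99 ± 0.14 (adjusted p = 2.7e-06).

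Zfp644, a zinc finger gene, had unheated medians of 28.2 and 29.2 TPM, heated wild-type values of 38.5, 47.1, 40.5 and 36.9 TPM and heated knockout values of 20.5, 21.1, 16.7, 23.3 and 25.1 TPM. These groups did not overlap either (difference -0.91 ± 0.12, adjusted p = 9.5e-07). Qk, which encodes an RNA-binding regulator of splicing, rose to 139.7, 157, 135 and 134 TPM in wild type from a median of 90.6 TPM. In the knockout it stood at 67.8, 65.4, 42.8, 95.3 and 87.0 TPM beside an unheated range of 84.8 to 111 TPM, so 2 of 5 samples lay within that range, and its knockout fall was not called under quantile normalization (-0.13). Elovl2, an elongase of long polyunsaturated fatty acids, moved by 0.45 and -0.39, and its fall also went uncalled on that scale (-0.05). Ogfod1 (0.59 and -0.41), Cldnd1 (0.39 and -0.42) and Etfbkmt (0.38 and -0.52) stayed opposite on all 3 scales, and Mier3 (0.40 and -0.56) lost its wild-type call with median-of-ratios scaling.

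Most chaperones were damped, and a few fell in each of the opposite classes. Of 43 cytosolic heat shock proteins and cochaperones 19 had a higher effect in the knockout and 17 a lower one, beside 33.2% and 47.6% of all genes. In this list 26 were damped, beside 68.8% of all genes. The opposite falls were Stip1, which links HSP70 to HSP90, the DNAJ cochaperones Dnaja1 and Dnaja2, the kinase-specific Cdc37 and the HSP90 cochaperone Ptges3. Stip1 stood at 104, 109, 100.07 and 101 TPM in heated wild type and 60.2, 68.1, 61.7, 68.0 and 73.2 TPM in the heated knockout, around unheated medians of 80.7 and 83.4 TPM. Its groups did not overlap, and the difference was -0.70 ± 0.07 (adjusted p = 3.6e-08). For all 5 genes the difference kept its sign and call on each scale, but under quantile normalization none of the 5 knockout falls was called.

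In the other direction stood Hspa1l, the spermatid-expressed HSP70, and Dnajb3 (-0.94 and 0.13, the knockout rise not called on either other scale). Hspa1l ran from 476 to 543 TPM and 452 to 507 TPM in the unheated groups (medians 501 and 480.2 TPM), stood at 302, 214, 287 and 348 TPM in heated wild type and at 761, 697, 701, 674 and 691 TPM in the heated knockout. No groups overlapped between heated and unheated samples, and the effects of -0.83 ± 0.08 and 0.55 ± 0.08 kept their signs and calls on all 3 scales (difference 1.38 ± 0.12, adjusted p = 2.7e-09). The spermatid cochaperone gene Dnajb7 fell in wild type by 3.19 and stood at 0.07 in the knockout, not called (difference 3.26 ± 0.25, adjusted p = 6.9e-10). Hsp90aa1, for the inducible HSP90, was an equal fall, at -1.09 ± 0.08 and -1.17 ± 0.08. It stood at 589.3, 589.6, 591 and 661 TPM in heated wild type and 621, 564, 478, 525 and 707 TPM in the heated knockout, overlapping ranges below unheated medians of 1289.6 and 1299.8 TPM. Under quantile normalization its difference was -0.25 and called. The heat shock factor gene Hsf2 fell more in the knockout (-0.97 and -1.31, difference -0.34, adjusted p = 0.021), a difference not called on either other scale.

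Other protein and energy lists held a few opposite falls among many damped genes. In the nuclear respiratory chain these included Ndufs1 (0.29 and -0.24), Uqcrb (0.40 and -0.14) and Atp5b (0.14 and -0.11) among 39 genes, with list medians of 0.29 in wild type and -0.14 in the knockout. These medians were 0.06 and -0.22 with median-of-ratios scaling and 0.48 and 0.11 with quantile normalization, so the sign in the knockout depended on the scale. Of 32 proteasome subunits 24 had a lower effect in the knockout, beside 47.6% of all genes. Psmd12 (0.44 and -0.12) and Psmd6 (0.29 and -0.19) were opposite and Psmb5, Psmd2, Psmd3 and Psmd13 were larger falls, while Psma6 was a larger rise (-0.11, not called, and 0.45). Psme3, an activator subunit of the nuclear proteasome named for its departure from the line, was opposite on all 3 scales (-0.74 and 0.54, difference 1.28 ± 0.09, adjusted p = 2.0e-10). Mitochondrial chaperones had medians of 0.58 and 0.15 over 14 genes, with Hspa9 (0.17 and -0.39) and Grpel1 (0.15 and -0.25) opposite. The chaperonin list had medians of -0.58 and -0.53 over 16 genes, with Cct4 and Cct5 equal falls and Cct8 opposite (0.37 and -0.14). None of these opposite falls was opposite on all 3 scales. Ribosomal protein genes had medians of 0.50 and 0.23, and 50 of 77 were damped, near the share over all genes.

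Of 39 stress granule genes 24 had a lower and 9 a higher effect in the knockout, beside 47.6% and 33.2% of all genes (medians 0.27 and 0.00). Among them 26 were damped like G3bp1 and G3bp2, a share near the 68.8% of all genes. Unlike G3bp1 and G3bp2, 18 of the 39 lay below the common line and 4 above, beside 26.6% and 19.5% of all genes. The medians were 0.04 and -0.08 with median-of-ratios scaling and 0.58 and 0.26 with quantile normalization. The exceptions to damping were the RNA-binding genes Elavl1 (0.27 and -0.38) and Atxn2 (0.35 and -0.19), which were opposite, and larger falls such as Nufip2, Caprin1 and Ubap2l. Nufip2, a G3BP partner, stood at 27.5, 30.3, 25.6 and 26.6 TPM in heated wild type and at 19.98, 16.4, 10.5, 19.8 and 25.1 TPM in the heated knockout, below unheated medians of 38.0 and 38.7 TPM. The heated knockout lay below the heated wild type in all samples (difference -0.62 ± 0.19, adjusted p = 0.0059). Eif4e, the cap-binding protein gene, rose more in the knockout, by 0.26 and 0.69 (difference 0.43 ± 0.07, adjusted p = 1.7e-05). On other scales Elavl1 and Atxn2 each lost 1 of their calls, and Caprin1 and Ubap2l were not called different with median-of-ratios scaling.

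A larger effect in the knockout was more often a fall than a rise, 994 genes against 297. Among larger rises the median effects were 0.04 and 0.61, and 191 had no call in wild type. Spata32, a spermatogenesis-associated gene at chr11:103208127-103218432, stood at 128, 109, 136 and 160.4 TPM in heated wild type, 3 below and 1 above an unheated range of 138 to 152 TPM. The heated knockout reached 271, 258, 284, 252 and 255 TPM from 130.3 to 147 TPM without heat, with no overlap. The effects were -0.12 ± 0.07 (not called) and 0.91 ± 0.07 (difference 1.03 ± 0.10, adjusted p = 1.3e-08). With median-of-ratios scaling the wild-type effect of Spata32 became a called fall of -0.36, which makes the gene opposite on that scale.

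Gabarapl1, an autophagy gene of the ATG8 family whose promoter is printed above, lies at chr6:129533160-129542346. It ran from 525 to 569 TPM in unheated wild type and stood at 556, 488, 570.7 and 576 TPM after heat, overlapping. In the knockout it ran from 483 to 546 TPM without heat and stood at 964, 898, 913, 809 and 861 TPM after heat, apart. The effects were 0.01 ± 0.05 (not called) and 0.77 ± 0.05, and the departure from the common line was 0.79 (adjusted p = 3.7e-09). The wild-type effect was a called fall of -0.23 with median-of-ratios scaling and a called rise of 0.20 with quantile normalization. The other 25 tested autophagy and lysosome genes held 22 damped ones, beside 68.8% of all genes, and the opposite Becn1 (0.13 and -0.27). Becn1 was not opposite under quantile normalization.

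Calml4 (-0.09, not called, and 0.83), the acyl-CoA synthetase gene Acsl5 (-0.11, not called, and 0.81), the T-cell receptor subunit gene Cd3d (-0.17, not called, and 0.74), Klk1b26 (-0.10, not called, and 0.77) and Klk1b9 (-0.03, not called, and 0.82) were the other named larger rises. Of the 6 named, Calml4 alone kept its class on all 3 scales, and the differences of all 6 stayed positive and called. Herpud1, an endoplasmic reticulum degradation gene, rose by 0.26 ± 0.06 in wild type and 0.88 ± 0.06 in the knockout (difference 0.62 ± 0.08, adjusted p = 1.1e-06). Of 31 genes listed for the unfolded protein response and integrated stress response 27 were damped, and 28 had a lower effect in the knockout, beside 68.8% and 47.6% of all genes. Within that list Chac1 moved by 0.19 (not called) and -0.54, Sdf2l1 was another larger fall, and Creld2 was an equal fall (-1.77 and -1.75). Larger falls of the list numbered 2 as deposited, 1 with median-of-ratios scaling and 0 with quantile normalization. Asns, for asparagine synthetase, fell by 0.84 in wild type and stood at 0.07 in the knockout, not called (difference 0.91 ± 0.12, adjusted p = 7.4e-07), where quantile normalization gave a called rise of 0.40.

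The larger falls had median effects of -0.14 and -0.55, and 94.8% of matched members were protein-coding, beside 76.4% of all. Slc35a3, a Golgi nucleotide-sugar transporter gene at chr3:116669470-116712831, stood at 14.9, 17.2, 15.3 and 15.2 TPM in heated wild type and 6.63, 6.66, 5.20, 10.6 and 10.2 TPM in the heated knockout, from unheated medians of 21.5 and 20.3 TPM. Heated samples were below all unheated ones in both genotypes and lower in the knockout than in wild type. The falls were -0.43 ± 0.12 and -1.30 ± 0.12 (difference -0.88 ± 0.17, adjusted p = 8.8e-05). Rasal1, a RAS GTPase-activating protein gene at chr5:120648812-120679597, behaved likewise, with 16.3, 16.2, 13.7 and 13.3 TPM in heated wild type and 6.36, 10.3, 7.37, 9.87 and 9.16 TPM in the heated knockout. Its unheated samples ran from 18.5 to 26.1 TPM and 23.2 to 27.2 TPM, and the difference was -0.80 ± 0.15 (adjusted p = 5.4e-05).

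Pign, of the GPI anchor pathway, fell by 0.41 and 1.27, Fam126b stood at -0.02 (not called) and -0.99, Fam168a at 0.24 (not called) and -0.56, and Klhl24 at 0.25 (not called) and -0.54. All 6 named larger falls kept their class on the 3 scales. The X chromosome held 1.42% of the larger falls and 4.65% of all genes. Over 871 X-linked genes the median effects were 1.33 and 0.65, against 0.05 and -0.01 over 17686 autosomal genes. Histone variant genes H2afz, H2afy and H3f3b were larger falls too, the last at -0.01 (not called) and -0.44. Larger falls of the histone list numbered 3 as deposited, 2 with median-of-ratios scaling and 1 with quantile normalization.

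Equal falls far outnumbered equal rises, 512 against 28, with medians of -1.28 and -1.24. Atp10a, a phospholipid flippase gene at chr7:58656166-58829420, ran from 28.2 to 31.4 TPM in unheated wild type and 26.4 to 31.0 TPM in the unheated knockout. It stood at 2.70, 2.28, 2.03 and 2.31 TPM after heat in wild type and 1.86, 1.75, 1.53, 1.96 and 3.67 TPM in the knockout. The heated groups overlapped each other and lay far below the unheated ones, 12.9-fold and 13.1-fold lower by means, with a difference of -0.01 ± 0.16 (95% interval -0.34 to 0.31). Its departure from the common line was -1.69 (adjusted p = 3.7e-09). Such a departure follows from equal falls of this size and adds no separate result, and all 512 equal falls lay below the line. Rusc2 (-2.51 and -2.52) and Ngfr, a neurotrophin receptor gene (-3.07 and -2.87), were equal on all 3 scales. Zfp819 (-2.78 and -2.75) was not equal under quantile normalization, and Tmem39b (-2.79 and -2.59) on neither other scale. Igkv4-63 (-2.72 and -2.70) had an interval that just met the bound and lost it without any 1 of the 21 libraries, and Ngfr lost it without 10 of them.

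Of the 38 lists, the mitotic cell cycle genes held most equal falls. Of 29 tested, 5 were equal falls, 5 larger falls and 12 damped, beside 2.70%, 5.24% and 68.8% of all genes, Mcm7 being both equal and damped. In the list 17 lay below the common line and 0 above, beside 26.6% and 19.5% of all genes. The list medians were -0.49 in wild type and -0.74 in the knockout. Under quantile normalization the medians were -0.50 and -0.44, so the order of the genotypes depended on the scale. Ccnb1, for cyclin B1, stood at 16.5, 16.2, 15.9 and 17.1 TPM in heated wild type and 14.99, 13.1, 13.3, 11.6 and 23.8 TPM in the heated knockout, overlapping ranges below unheated medians of 70.6 and 73.0 TPM. Its difference was -0.13 ± 0.16 (95% interval -0.47 to 0.21). Aurkb (-1.17 and -1.23), Cenpe (-1.86 and -1.99), Cenpf (-1.30 and -1.13) and Mcm7 (-1.37 and -1.10) were the others. The larger falls were Top2a, Mki67, Bub1, Rrm1 and Mcm5. Top2a, for the topoisomerase of dividing cells, stood at 69.7, 66.5, 61.0 and 64.8 TPM in heated wild type, within its unheated range of 59.8 to 74.0 TPM, and at 45.2, 47.0, 44.8, 47.8 and 57.5 TPM in the heated knockout, below its unheated range of 62.7 to 68.4 TPM. Its difference was -0.47 ± 0.09 (adjusted p = 9.3e-05), and larger falls of the list numbered 2 with median-of-ratios scaling and 1 with quantile normalization, where Top2a was opposite (0.24 and -0.16).

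Among early meiotic genes Rec8, the meiotic cohesin subunit, was equal, at 15.2, 14.7, 12.5 and 11.98 TPM in heated wild type and 11.8, 12.6, 12.7, 12.8 and 16.9 TPM in the heated knockout. These ranges overlapped, below unheated medians of 62.8 and 61.1 TPM, and the difference was -0.00 ± 0.12 (95% interval -0.25 to 0.25). Of the 29 genes of that list 18 were damped, beside 68.8% of all genes. Sycp2 was a larger fall (-0.19, not called, and -0.56) and Hormad2 was opposite (0.26 and -0.27), calls that both other scales removed for Hormad2. The list medians were -0.31 and -0.39, and on both other scales the knockout median was the nearer to 0 (-0.52 and -0.47, and -0.43 and -0.29).

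**Figure D4:**
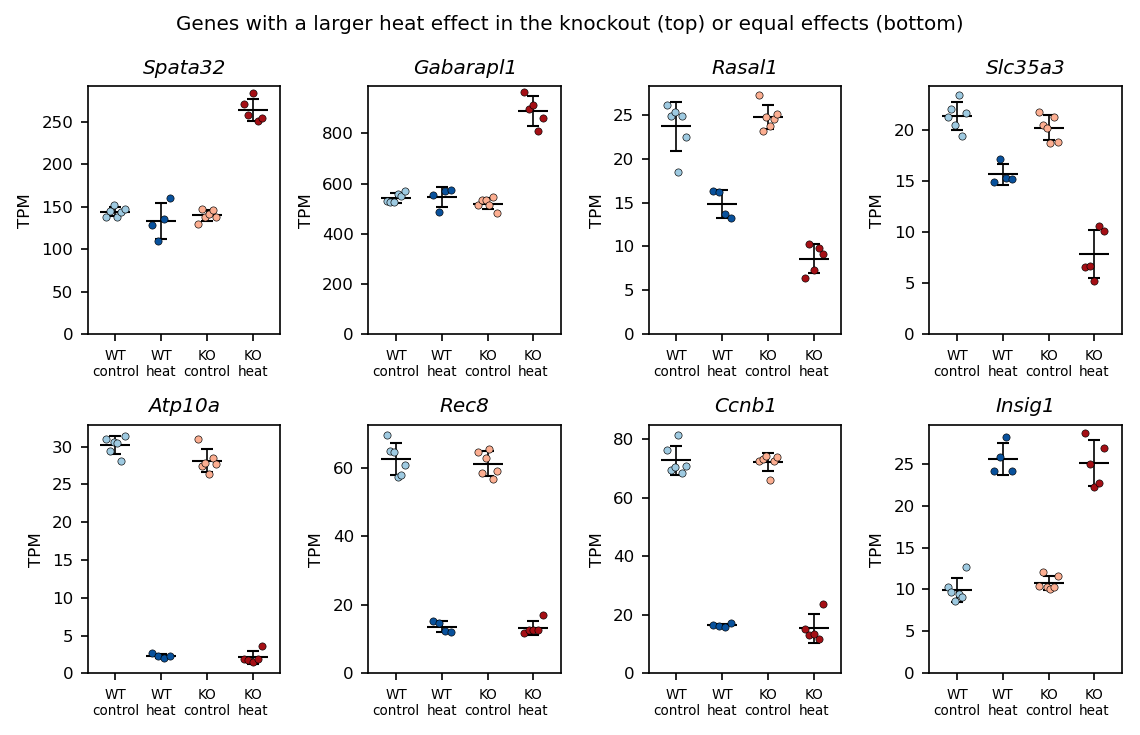
TPM in each library, from 0 on each vertical axis, for 4 genes with a larger heat effect in the knockout (top row) and 4 with equal effects (bottom row). Points are libraries, and bars are the mean and SD of 6, 4, 6 and 5 libraries in the order drawn, with WT for wild type and KO for knockout. For Atp10a, Rec8, Ccnb1 and Insig1 the 2 heated groups overlap, whereas in the top row the heated KO stands apart from the other 3 groups.

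Only 28 rises were equal, with medians of 1.13 and 1.04. Insig1, a brake on sterol synthesis at chr5:28071363-28078662, stood at 24.2, 25.8, 28.2 and 24.2 TPM in heated wild type and 28.6, 24.96, 22.3, 22.7 and 26.9 TPM in the heated knockout. These overlapped, above unheated ranges of 8.64 to 12.7 TPM and 10.02 to 12.1 TPM, and the difference was -0.14 ± 0.12 (95% interval -0.40 to 0.11). The sterol list was mixed, with medians of 0.65 and 0.56 over 22 genes, 13 of them damped, beside 68.8% of all genes. Its knockout median was the larger on both other scales (0.43 and 0.48, and 0.50 and 0.66). Fdps, for farnesyl diphosphate synthase, was opposite on all 3 scales (-0.44 and 0.26). Castor1, an arginine sensor of the mTORC1 pathway, was equal at 1.32 and 1.17, as were Rasl12 (1.65 and 1.38), Vstm4 (1.25 and 1.06), Glul for glutamine synthetase (1.20 and 0.97) and the ubiquitin-conjugating Ube2r2 (1.18 and 1.03). Rasl12 and Glul, though inside the bound, had a called difference toward damping, and Glul and Ube2r2 were not equal on 1 or both other scales. Among 22 MAGE family genes 19 were damped, beside 68.8% of all genes, and Mageb2 was an equal rise (1.58 and 1.39).

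Ranked by the moderated statistic of the departure from the common line, the genes above it were Rasa3 (-1.92 and 0.19), Mical3 (-0.60 and 0.59), Mgat4e (-1.77 and 0.52), Rnf24 (-1.72 and 0.25), Psme3 and Gabarapl1, all opposite rises but the last. Below it stood Tmem177 (-1.24 and -1.50), Zscan21 (-2.05 and -2.14), the intraflagellar transport gene Ift43 (-1.91 and -1.85), Tpst1 (-1.50 and -1.73), Art3 (-1.38 and -1.70) and Dapp1 (-0.99 and -1.68). Dapp1 stood at 21.3, 28.0, 22.1 and 22.6 TPM in heated wild type and 13.5, 12.2, 12.2, 13.5 and 15.1 TPM in the heated knockout, with all knockout samples lower. Its departure from the line was -1.18 (adjusted p = 2.3e-09).

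The most strongly damped falls included the spermatid gene Odf3, given above. Prss52 stood at 18.7, 3.95, 3.83 and 6.03 TPM in heated wild type and 211, 147, 172, 135 and 174 TPM in the heated knockout, which overlapped the unheated knockout range of 114 to 147 TPM. It had the effects -4.13 ± 0.25 and 0.36 ± 0.24 (the latter not called, difference 4.49 ± 0.34, adjusted p = 8.5e-10). Under quantile normalization the knockout effect was a called rise of 0.66, which makes Prss52 opposite on that scale. Hils1, the spermatid linker histone gene, fell by 4.16 in wild type and stood at -0.19 in the knockout, not called. Ccdc185 (difference 4.82) and Cst13 (difference 4.29) were alike, with knockout effects of -0.18 and 0.16 that were not called. In all, 2311 damped genes had no called effect in the knockout, 1257 rises and 1054 falls.

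Somatic and stress lists held few departures by class, and their damped counts stand beside 68.8% of all genes, a share that the Leydig and oxidative stress lists came near to. Sertoli genes had medians of 2.75 and 1.55, with 31 of 33 damped, and Leydig genes 1.91 and 1.23, with 20 of 27 damped. Without heat the summed TPM of the Sertoli list was 2473 to 2801 in wild type and 3098 to 4066 in the knockout. The unheated sums of the Leydig list overlapped, at 1739 to 2339 and 2282 to 3056 TPM. Leukocyte genes had medians of 1.95 and 1.05 (22 of 25 damped), antigen presentation genes 2.11 and 0.95 (16 of 16), interferon-stimulated genes 1.88 and 0.89 (17 of 18), p53 targets 1.76 and 0.92 (24 of 27) and oxidative stress genes 1.80 and 1.03 (20 of 27). Relative to the common line, 14 Sertoli genes lay above and 1 below, and 11 Leydig genes above and 1 below. In the oxidative stress list 10 lay above and 5 below, and among p53 targets 8 and 3. Leukocyte, antigen presentation and interferon-stimulated genes each had 2 above and at most 1 below. The shares over all genes were 19.5% above and 26.6% below. The oxidative list still held the peroxiredoxin gene Prdx4 as a larger rise (-0.09, not called, and 0.61) and Srxn1 as an opposite rise (-0.57 and 0.23). Larger rises of that list numbered 2 as deposited, 0 with median-of-ratios scaling and 1 with quantile normalization. Aif1, a macrophage marker, differed in sign from its list: it fell by 2.42 in wild type and stood at 0.22 in the knockout, not called (difference 2.64 ± 0.19, adjusted p = 3.5e-10). Actg2 of smooth muscle (-0.76 and 0.27) and the collagen gene Col15a1 (-0.80 and 0.27) were opposite, against list medians of 1.499 and 0.87 for myoid and 1.31 and 0.90 for matrix genes. Col15a1 was not opposite with median-of-ratios scaling. Timp1, an inhibitor of metalloproteinases, was a damped rise, at 5.86 ± 0.28 against 3.18 ± 0.26.

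**Figure D5:**
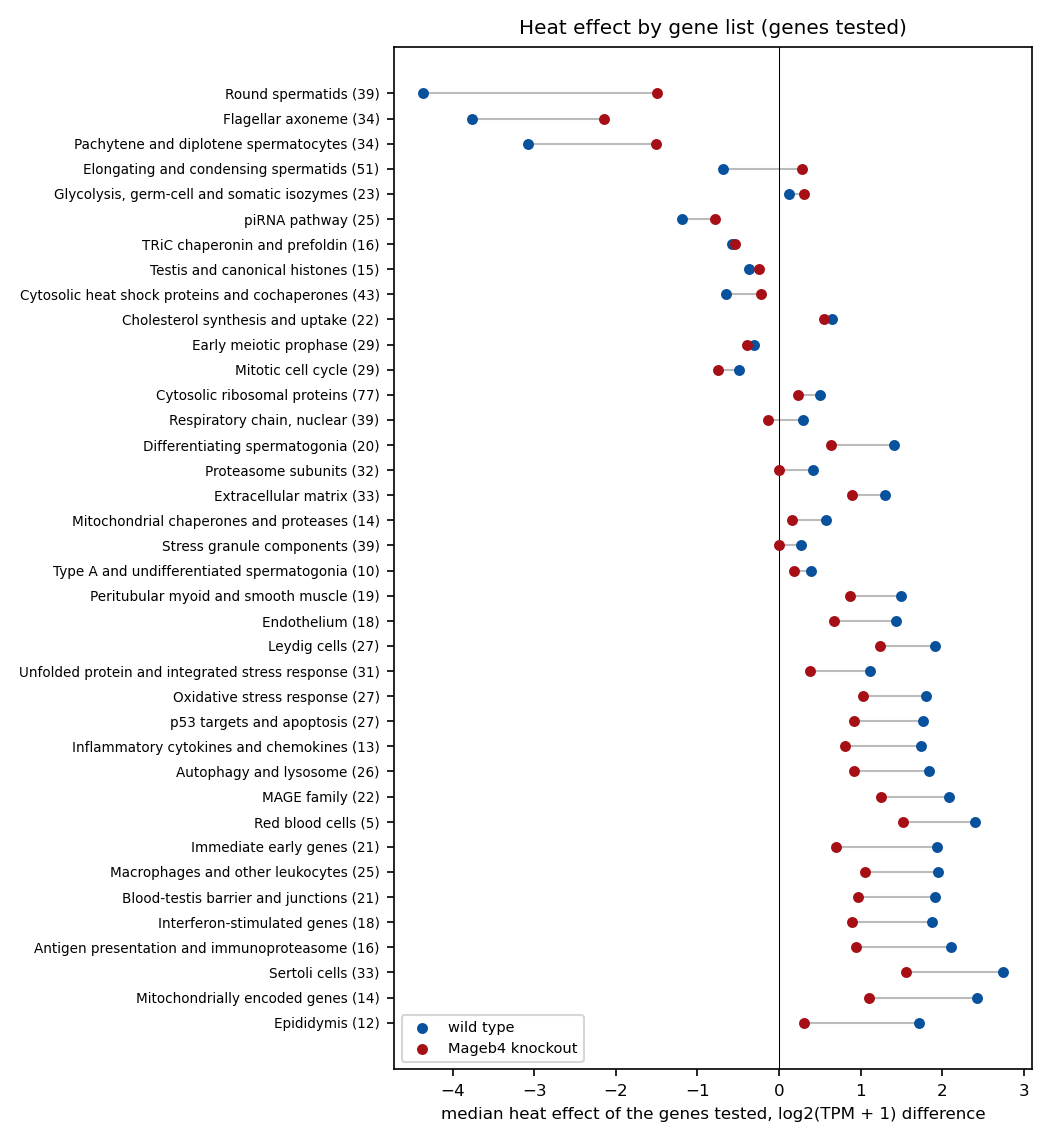
Median heat effect of the tested genes of each of 38 lists in wild type and in the Mageb4 knockout, ordered by the median difference of the effects, with the number of genes tested in parentheses. For Sertoli cells the knockout point lies nearer to 0, at 1.55 against 2.75, and for elongating spermatids it lies on the other side of 0, at 0.28 against -0.68.

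Heated wild-type replicate 3 stood apart in epididymal genes and was left out in turn like every other library. Crisp1 stood at 2125.8 TPM there and at 0.35 TPM or less in the remaining 3 of its group. Spink8 and Defb37, which the naming rule picked as damped rises with differences of -3.06 and -2.75, stood at 1280.1 and 325 TPM in that library against at most 17.97 TPM and 4.48 TPM in the others of the group. Without it their differences were -1.49 and -1.19 and still called, and the median difference of the epididymis list went from -1.43 to 0.01. Within that list Cst8 (-1.07 and 0.51) and Teddm2 (-0.52 and 0.54) were opposite rises on all 3 scales.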

How the data were processed

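RNA from whole testes was sequenced in 21 libraries from a stranded mRNA kit, per the labels' protocols. The authors aligned reads with STAR to mm10, per the submitters' processing notes. The aligner's version, the counter and the annotation were not stated in those notes. The deposited table holds TPM for 55573 entries. TPM keeps no depth, so the depth per library is unknown and no counting interval is given. Precision comes from replicates, whose median SD on the log2 scale was 0.110 to 0.179. The pseudocount understates the change of low genes.

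Values were taken as log2(TPM + 1), with a pseudocount of 1, for 18977 genes averaging 1 TPM or more. Limma 3.58.1 in R 4.3.3 fitted 1 mean per group over all 21 libraries, with a mean-variance trend, and every adjusted p is from this fit, 2-sided, with Benjamini-Hochberg adjustment over all genes at 0.05. The fit was tested on simulated data. The line was fitted by least squares of the knockout on the wild-type effect over genes, and the departure is the knockout effect minus that line. Alternatives were another pseudocount, filter, scaling and trend, a replicate block, and leaving out each library.

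Genes named by rule had a mean of at least 5 TPM, 1 entry, and no predicted-gene or small-RNA name. They were the 8 opposite genes with the largest smaller effect in each direction, the 6 larger ones by difference, the 6 equal ones by wild-type effect, the 4 damped ones by difference, and the 6 farthest on each side of the line, with the list members of largest and smallest difference, Mageb4, G3bp1 and G3bp2. Any other gene was picked once its values had been seen. The members and lists were chosen with earlier results of these data known. Promoters are RefSeq's on GRCm38.p6, and 12833 tested genes matched by symbol. Coordinates and gene types are GENCODE M21's on mm10, and 18740 tested genes matched. Some genes that met these rules are not reported here.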

Additional observations from a re-analysis of the deposited data

Results flagged for a closer look

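Of 62 genes looked at, 50 had a difference of the heat effects that passed the test (limma, adjusted over all genes), and each is given as knockout minus wild type on the log2 scale. A higher effect in the knockout was found for Defb33 (1.79), Tex13c3 (2.4), Tfam (2.18), Gramd2 (1.96), H2al1n (1.59), Prm1 (1.57), Tmem269 (1.47) and Spata32 (1.03). It was also found for Calml4 (0.92), Acsl5 (0.92), Cd3d (0.91), Klk1b26 (0.87), Klk1b9 (0.85), Ccdc185 (4.82), Prss52 (4.49), Odf3 (4.36) and Cst13 (4.29). Further such genes were Rasa3 (2.11), Mical3 (1.19), Mgat4e (2.29), Gabarapl1 (0.76), Rnf24 (1.97) and Psme3 (1.28). A lower effect in the knockout was found for Itpk1 (-0.99), Qk (-1.08), Zfp644 (-0.91), Ogfod1 (-1.01), Mier3 (-0.97), Elovl2 (-0.84), Cldnd1 (-0.81), Etfbkmt (-0.91) and Fam126b (-0.97). The same direction held for Slc35a3 (-0.88), Pign (-0.86), Rasal1 (-0.8), Fam168a (-0.8), Klhl24 (-0.79), Rasl12 (-0.27), Glul (-0.23), Spink8 (-3.06) and Defb37 (-2.75). Others of that direction were Timp1 (-2.68), Lcp1 (-2.35), Tmem177 (-0.25), Tpst1 (-0.23), Art3 (-0.32), Dapp1 (-0.69), Mageb4 (-1.59), G3bp1 (-0.72) and G3bp2 (-1.04). Mageb4, counted among the 50, is the gene knocked out, so its lower effect was set by the genotype.

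In 19 of 248 sets of 1 gene in 1 group, 1 sample stood far from the rest, and chance puts a sample apart in about 1 in 20 sets. Among unheated wild-type libraries this was so for Mier3 in replicate 4 at 60.95 TPM (others 50.08 to 51.86), Elovl2 in replicate 4 at 146.9 TPM (others 122.13 to 130.34) and Spink8 in replicate 2 at 2.95 TPM (others 0.59 to 1.32). Also among unheated wild-type libraries this was so for Dapp1 in replicate 1 at 43.15 TPM (others 47.54 to 49.24). Among unheated knockout libraries this was so for Klk1b26 in replicate 4 at 14.47 TPM (others 12.64 to 13.16), Castor1 in replicate 6 at 7.63 TPM (others 5.63 to 6.36) and Ube2r2 in replicate 1 at 42.8 TPM (others 46.3 to 48.37). Also among unheated knockout libraries this was so for Zscan21 in replicate 5 at 127.55 TPM (others 114.34 to 118.23), Dapp1 in replicate 5 at 50.75 TPM (others 42.12 to 44.74) and G3bp1 in replicate 6 at 16.48 TPM (others 12.86 to 13.7). Among heated wild-type libraries this was so for Rasl12 in replicate 1 at 15.84 TPM (others 12.26 to 12.81), Spink8 in replicate 3 at 1280.14 TPM (others 11.52 to 17.97) and Defb37 in replicate 3 at 324.66 TPM (others 2.33 to 4.48). Also among heated wild-type libraries this was so for Ccdc185 in replicate 1 at 16.11 TPM (others 1.63 to 2.89), Prss52 in replicate 1 at 18.73 TPM (others 3.83 to 6.03) and Odf3 in replicate 1 at 18.12 TPM (others 1.62 to 3.7). Among heated knockout libraries this was so for Atp10a in replicate 5 at 3.67 TPM (others 1.53 to 1.96), Tmem39b in replicate 5 at 14.28 TPM (others 9.61 to 10.51) and Ift43 in replicate 5 at 58.52 TPM (others 50.96 to 52.92). For Atp10a and Tmem39b it was heated knockout replicate 5, and for Ccdc185, Prss52, Odf3 and Rasl12 heated wild-type replicate 1.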

How the results depend on the processing

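The counts of genes with a higher or lower effect in the knockout, and of each class, stayed within 1.5 times under another pseudocount, filter, scaling or trend and without any 1 library, with 2 exceptions. With no filter on low values 6532 genes lay above the line, and under quantile normalization 74 rises were equal. Without 1 library at a time, opposite rises numbered 459 to 579, opposite falls 342 to 479, larger rises 285 to 305, larger falls 864 to 1140, equal rises 25 to 41 and equal falls 454 to 637, and the slope was 0.451 to 0.494. A count does not say which genes: the report gives how many kept their class across scales. Quantile normalization turned the knockout effect of Prm1 to -0.23 (adjusted p = 0.0026) and the median difference of the chaperonin list to -0.0155, and leaving out heated wild-type replicate 3 turned that of the epididymis list to 0.0103 (leaving out each library in turn gave -1.87 to 0.0103). Rasl12, Ngfr and Igkv4-63 were no longer equal with a pseudocount of 0.5 or a filter at 5 TPM. Rasl12 was not without any 1 of 12 libraries, and Castor1 without any 1 of 4. Defb37 was not called different with no filter (adjusted p = 0.058). Depth is unknown, so a limit for low genes cannot be set.

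Replicate numbers did not pair the samples: over 28 pairs with the same number the correlation of deviations ran from -0.23 to 0.31, and 1 of 21 samples correlated best with its own number. With the replicate number as a block, 6188 genes were higher and 8935 lower in the knockout, with 497 opposite rises, 340 opposite falls, 283 larger rises, 992 larger falls, 31 equal rises, 492 equal falls and a slope of 0.479. Rasl12 and Igkv4-63 were then not equal.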

Other observations

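Lists not described above held a few departures. Of 23 glycolysis genes 12 had a higher and 7 a lower effect in the knockout, beside 33.2% and 47.6% of all genes. Gpi1 (0.36 and 0.74, wild type and knockout) and the germ-cell isozyme Pgk2 (0.24 and 0.45) rose more in the knockout, as Gapdhs did. The differences of Gpi1 and Pgk2 were not called under quantile normalization. Mitochondrially encoded genes were damped in 12 of 14, beside 68.8% of all genes, with medians of 2.42 and 1.10. Ccl5, a chemokine gene, stood at -0.02 (not called) in wild type and rose by 0.81 in the knockout. Mmp2, a matrix metalloproteinase, was an equal rise (1.73 and 1.66). Cdh2, for N-cadherin of the junctions between Sertoli and germ cells, rose by 1.06 in wild type and fell by 0.21 in the knockout, a fall not called under quantile normalization.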
